A study of Mus musculus with 2 samples.

Results

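The genes described are 10 genes of prostaglandin synthesis and reception, followed through every probe set (a group of short probes against 1 transcript) that the platform annotation gives to exactly 1 of them. Of the 45101 features in the value table, 17 probe sets met this rule, and they covered 8 of the 10 genes: Ptgs2, Ptges, Ptges2, Ptgis, Ptgds, Ptger2, Ptger4 and Ptgfr. Ptgs1 had no probe set of its own in the annotation used here, and both probe sets of Ptges3 are also given to the pseudogene Ptges3-ps, so neither gene is among the results. Osteoblasts, which build bone, had been isolated from the skull vault (calvaria) of CD1 mice aged 7 days. The cultures were grown with 10% serum, starved of serum for 24 h and then held for 24 h with 2 µM PP1, an inhibitor of Src-family kinases, or with the vehicle DMSO. Each condition was 1 array of 1 culture sample, and whether cells of several animals were pooled is not stated in the labels. With no replicate there was no test and no p-value, and every value describes these 2 arrays.

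Prostaglandins are short-lived lipid signals. Phospholipases free arachidonic acid from membranes, the cyclooxygenases turn it into the intermediate prostaglandin H2, and a separate terminal synthase makes each end product, which leaves the cell and acts on receptors of its own. In bone, prostaglandin E2 made by osteoblasts is known to act back on these cells and on osteoclast formation, and the inducible cyclooxygenase is its main switch.

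Signals are given in array units after the PP1 array had been multiplied by 1.68, which made the trimmed means of both arrays equal, so every direction is relative to the bulk of probe sets. Signals below 31.7, the median of all probe sets on both arrays, were taken as that floor in each log2 ratio (PP1 minus DMSO). A ratio with 1 array below the floor is therefore a bound and is written as "at least". Without this scaling, the median log2 ratio of all genes shifted by -0.72. The spread of log2 ratios between probe sets of the same gene had an SD of 0.41 over 4745 genes, which is error between probe sets and not between cultures. Of 10 osteoblast markers, 5 were measured: Col1a1 (signals of 9931 with PP1 and 7558 with DMSO), Alpl (242.3 and 187.5), Pth1r (204.2 and 240.0), Sp7 (53.3 and 71.6) and Ibsp (37.7 and 159.1, 4.22-fold lower). Dmp1 and Phex were below the floor on both arrays, and Runx2, Bglap and Spp1 had no probe set of their own here. All 12 macrophage markers were above the floor on at least 1 array, with summed signals of 13451 with PP1 and 11450 with DMSO. Fewer cells of a type and less RNA per cell cannot be told apart in such samples.

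Of the 8 genes, each taken by its probe set of highest mean signal, 1 was at least 2-fold lower with PP1 (Ptgs2) and 2 were at least 2-fold higher (Ptgds and Ptgfr). Among all 12133 measured genes, those above the floor on at least 1 array, 1.55% were at least 2-fold lower and 3.02% at least 2-fold higher. At 1.5-fold, the counts were 1 lower and 3 higher, Ptges being the addition, where 7.38% of all genes were lower and 10.6% higher. The 8 log2 ratios ran from -3.57 to 1.56 with a median of -0.12, against a median of 0.01 for all genes, and 4 lay on each side of 0. Those of Ptgs2, Ptger2 and Ptgfr are bounds, and the array above the floor sets their side. Relative to all genes, the inducible enzyme Ptgs2 and the inducible synthase Ptges stood on different sides. Of the 17 probe sets, 6 were above the floor on both arrays, 8 on 1 array and 3 on neither. Over the 14 that could be given a ratio, 1 was at least 2-fold lower and 2 at least 2-fold higher, where 1.44% and 4.14% of all probe sets above the floor were.

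**Figure D1:**
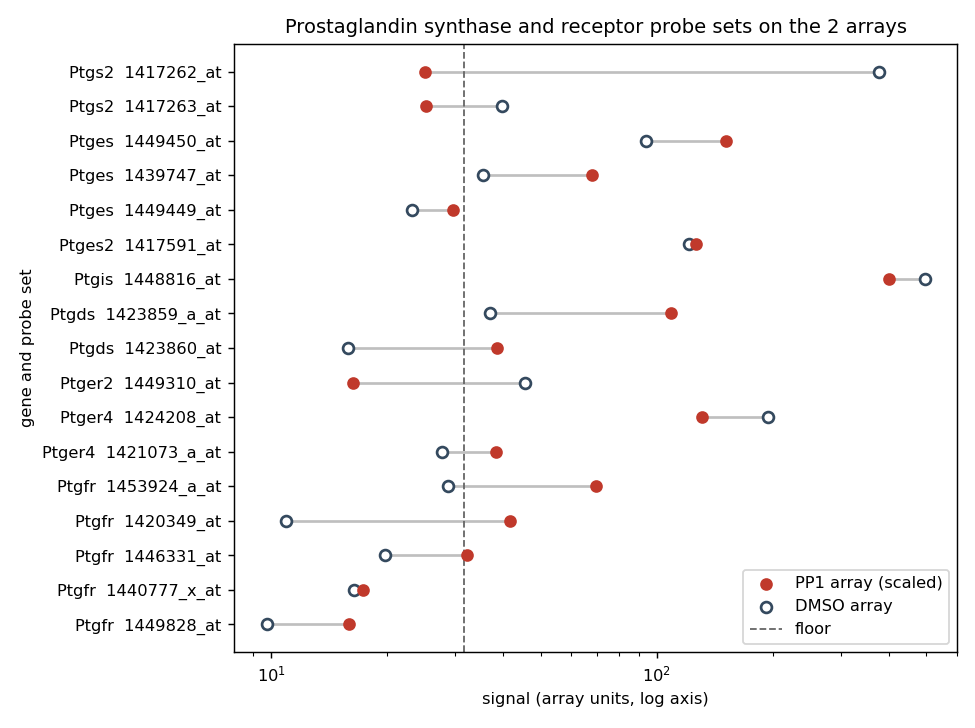
Signal of each of the 17 probe sets (rows) on the PP1 array after scaling (filled red) and on the DMSO array (open), in array units on a log axis, with the floor of 31.7 as a dashed line. Ptgs2 by probe set 1417262_at shows the widest separation, 25.1 with PP1 and 377.3 with DMSO, whereas the rows of Ptgds, Ptges and Ptgfr have the PP1 point on the right.

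Ptgs2 encodes cyclooxygenase 2, the enzyme that growth factors and cytokines induce. Its probe set 1417262_at had a signal of 25.1 on the PP1 array, below the floor, and 377.3 on the DMSO array. It was thus at least 11.9-fold lower with PP1 (log2 ratio of at most -3.57, or -3.91 with no floor). Its log2 ratio was rank 1 from the bottom among the 12133 measured genes. Of 2286 genes whose DMSO signal lay within 0.5 log2 units of that of Ptgs2, 43 (1.88%) were at least 2-fold lower, and Ptgs2 was the only 1 of them below the floor with PP1. The other probe set, 1417263_at, had 25.2 with PP1 and 39.8 with DMSO, at least 1.26-fold lower (-0.66 on the log2 scale with no floor). On the PP1 array both probe sets were below the floor, so their floored ratios could only be negative. With no floor both were lower as well. The second was close to the floor with DMSO too. Relative to the median of all genes, its log2 ratio was 0.01 with the signals as deposited and 0.06 with hybridization controls. The gap of 3.24 log2 units between the 2 ratios was the largest of 5488 genes that had more than 1 probe set past the floor, whose median gap was 0.51. The size of the Ptgs2 difference therefore rests on 1 probe set, and both carry the same source accession in the annotation.

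By distance in log2 signal over the 2 arrays, the 5 genes nearest to Ptgs2 were Ces5a (signal of 48.2 with PP1 and 322.9 with DMSO), Fam20a (55.1 and 390.6), Rap1gap2 (63.7 and 254.9), Nox4 (74.1 and 348.6) and Dusp5 (40.2 and 164.2). Their distances ran from 0.64 to 1.25 log2 units. All 5 kept a signal above the floor with PP1, and their differences ran from 4.00-fold lower for Rap1gap2 to 7.08-fold lower for Fam20a. Of these, Nox4 is an NADPH oxidase and Dusp5 an ERK phosphatase. With 2 arrays this likeness says no more than that the signals were alike.

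The stretches of 250 bases upstream of the annotated transcription start are shown for the 3 genes past 2-fold, 1 lower and 2 higher. Factors known to induce prostaglandin genes can bind in such regions. They are RefSeq sequences of build GRCm38.p6, on the gene's strand from 5′ to 3′; 9 of the 10 genes matched the table. Capitals mark the motif letters that were searched for on both strands: TATAAA (bound by TBP), TGACGTCA (cAMP response element), CACGTG (E-box), TGANTCA (AP-1), TTNNGNAAT and TTGCGCAA (C/EBP) and GGGCGG (Sp1). The Ptgs2 stretch is chr1:150099781-150100030 on the + strand, that of Ptgds is chr2:25469750-25469999 on the - strand, and that of Ptgfr is chr3:151837529-151837778 on the - strand.
Ptgs2: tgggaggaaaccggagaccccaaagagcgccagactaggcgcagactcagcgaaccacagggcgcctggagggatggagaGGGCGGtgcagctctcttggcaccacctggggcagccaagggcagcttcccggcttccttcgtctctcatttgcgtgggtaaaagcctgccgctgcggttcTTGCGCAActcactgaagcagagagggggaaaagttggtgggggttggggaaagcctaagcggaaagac
Ptgds: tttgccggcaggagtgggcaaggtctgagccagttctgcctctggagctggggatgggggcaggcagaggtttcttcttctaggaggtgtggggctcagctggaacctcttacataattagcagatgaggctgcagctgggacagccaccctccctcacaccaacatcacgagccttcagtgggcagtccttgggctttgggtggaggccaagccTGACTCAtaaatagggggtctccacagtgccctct
Ptgfr: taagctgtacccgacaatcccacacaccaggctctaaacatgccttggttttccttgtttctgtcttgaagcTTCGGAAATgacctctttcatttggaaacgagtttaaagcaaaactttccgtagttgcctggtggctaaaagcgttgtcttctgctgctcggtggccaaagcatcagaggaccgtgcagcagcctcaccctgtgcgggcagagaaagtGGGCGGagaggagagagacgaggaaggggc

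The Ptgs2 stretch held the C/EBP palindrome from 69 to 62 bases before the start. It is present in 54 of 32851 promoter stretches of this length (0.164%), and in no other of the 9 member stretches. Its letters were added to the search after the sequence had been read, so the match is a description only. A sequence in which T follows this palindrome would match both C/EBP motifs. Ptgs2 also held the Sp1 letters from 170 to 165 bases before the start, a motif found in 32.7% of all stretches and in 5 of the 9. Ptgds held an AP-1 match from 35 to 29 bases before the start (6.75% of all stretches). Ptgfr held a C/EBP match of the looser form from 178 to 170 bases before it (10.2%) and Sp1 letters from 30 to 25. None of the 9 stretches held TATAAA (12.4% of all) or TGACGTCA (1.55%), and CACGTG (6.02%) was found in that of Ptges2. Bases past the annotated start and other forms of these motifs were not searched. A motif not found here may therefore still lie near the start of the gene. In base composition the Ptgs2 stretch was 61.6% G and C with 13 CpG, that of Ptgds 58.4% with 2 and that of Ptgfr 52.0% with 10, against medians of 52.4% and 6 over all stretches. Of the motifs searched, none was in both Ptgds and Ptgfr.

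Signals of genes for transcription factors and RNA-binding proteins known to act on Ptgs2 lay on both sides of 0. Of 18 listed genes, 17 were measured, with a median log2 ratio of 0.00, against 0.01 for all genes, and 8 were below 0 and 9 above. None was at least 2-fold lower. Cebpb had signals of 2225 with PP1 and 1967 with DMSO, Jun 1406 and 1404, and Rela 1068 and 1037, all 3 within 1.2-fold. Zfp36, whose protein hastens the decay of AU-rich mRNAs, had 223.9 with PP1 and 176.5 with DMSO, and Elavl1, whose protein stabilises them, had 1105 and 1549 (log2 ratio -0.49, and -0.49 to 0.11 over its 3 probe sets). Past 1.5-fold stood Runx1, lower at -0.85 but from there up to 0.52 over its 6 probe sets, Usf1 at 1.12 (0.51 by its other probe set) and Nfatc2 at 1.35, a bound from a DMSO signal of 21.1 (0.05 by its other probe set). Nfatc1 followed at -0.53, and at -0.99 to -0.22 over its 4 probe sets.

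Of the 3 prostaglandin E2 synthases listed, which act just after the cyclooxygenases, Ptges and Ptges2 had probe sets of their own. Ptges encodes the inducible microsomal enzyme that is usually switched on together with Ptgs2. Its probe set 1449450_at had signals of 151 with PP1 and 93.9 with DMSO (1.61-fold higher, log2 ratio 0.69), and 1439747_at had 67.9 and 35.5 (1.91-fold higher, 0.93). The 2 ratios differed by 0.25, less than the median gap of genes with 2 such probe sets (0.38). Among probe sets in the same range of mean signal, log2 ratios had an SD of 0.57 for 1449450_at and 0.62 for 1439747_at. The third probe set, 1449449_at, was below the floor on both arrays, with 29.6 on the PP1 array and 23.2 on the DMSO array. Ptges was thus higher with PP1 relative to the bulk of genes by both probe sets above the floor, while Ptgs2 was lower. As deposited, without scaling, the log2 ratios of Ptges were -0.062 and 0.19, that is, near 0. Ptges2, a constitutive synthase, had 126.8 with PP1 and 121.2 with DMSO, a log2 ratio of 0.07 that is well inside the spread between probe sets and gives it no side.

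Among the other terminal synthases, Ptgds stood highest of all 8 genes. It encodes the lipocalin-type prostaglandin D synthase, an abundant product of the meninges. By 1423859_a_at it had a signal of 109.2 with PP1 and 37.0 with DMSO, or 2.95-fold higher (log2 ratio 1.56), at rank 63 from the top among measured genes. The DMSO signal is close to the floor, and in this range of mean signal 11.2% of 2418 probe sets were at least 2-fold higher and 2.94% at least 2-fold lower. The second probe set, 1423860_at, had 38.5 with PP1 and 15.8 with DMSO, at least 1.21-fold higher (1.28 with no floor). Both went the same way, also with no floor. The second was above the floor with PP1 only, which sets the side of its floored ratio. Ptgis, the prostacyclin synthase of vessel walls and mesenchymal cells, had 400.3 with PP1 and 495.6 with DMSO, 1.24-fold lower (-0.31), which is inside the SD between probe sets.

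Markers of other cell types are given beside Ptgds. All lists were chosen with earlier results of these data known, so a list on 1 side of 0 is a description only. Smooth muscle markers (4 of 5 measured) had a median of -0.40, from -1.37 for Cnn1, a bound, to 1.43 for Des. Endothelial markers (3 of 7 measured) had a median of 0.39, and platelet and megakaryocyte markers (4 of 5) one of -0.04. The 4 measured fibroblast markers of 5 were all above 0, where 6195 of all 12133 genes were. Their median was 1.22, Scara5 at 1.66 and Twist1 at 1.54 being at least 2-fold higher, and Pdgfra ran from -0.06 to 1.15 over 3 probe sets. The summed signals of these markers were 6166 with PP1 and 2411 with DMSO, and Pi16 was below the floor. The 6 measured meninges markers of 8 summed to 4347 with PP1 and 4505 with DMSO (3 above 0, median -0.17), and Slc6a13 and Slc22a6 were below the floor on both arrays. The largest signals in this sum were those of Zic1 (1492 with PP1 and 1087 with DMSO), Foxc1 (1320 and 1276) and Foxd1 (887.9 and 1326). All 6 mast cell markers were below the floor on both arrays. The part of the fibroblast markers in the Ptgds difference was not tested.

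The receptors went different ways. Ptger2 and Ptger4 encode EP2 and EP4, the receptors through which prostaglandin E2 raises cAMP. Ptger4 by 1424208_at had 131.0 with PP1 and 194.0 with DMSO, 1.48-fold lower (-0.57). This difference was past the SD between probe sets of a gene (0.41), but log2 ratios in this range of mean signal had an SD of 0.53. The other Ptger4 probe set, 1421073_a_at, was above the floor with PP1 only, which sets the side of its floored ratio. It had 38.3 with PP1 and 27.8 with DMSO, at least 1.21-fold higher (0.46 with no floor), so the direction of Ptger4 depends on the probe set. That of 1421073_a_at also depends on the scaling, with a log2 ratio of -0.17 as deposited and -0.21 with hybridization controls. Ptger2 had 16.3 with PP1, below the floor, and 45.4 with DMSO, at least 1.43-fold lower, and -1.48 with no floor, where it would count as 2-fold lower. The single probe set of Ptger2 and the brighter one of Ptger4 were thus lower with PP1, for Ptger2 from a DMSO signal near the floor. Ptger2 was above the floor with DMSO only, so its floored ratio could only be negative.

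Ptgfr encodes FP, the receptor of prostaglandin F2alpha, which signals through calcium. By 1453924_a_at it had 69.8 with PP1 and 28.8 with DMSO, at least 2.20-fold higher (log2 ratio of at least 1.14). In the same range of signal as Ptgds, the share of probe sets at least 2-fold higher was again 11.2%. By 1420349_at it had 41.7 with PP1 and 10.9 with DMSO, at least 1.32-fold higher, and by 1446331_at 32.1 and 19.8, at least 1.01-fold. The last 2, 1440777_x_at and 1449828_at, were below the floor on both arrays. The first 3 were above the floor with PP1 only, so their floored ratios could only be positive. With no floor, the log2 ratios of these 3 were 1.28, 1.93 and 0.70, and those of the last 2 were 0.08 and 0.71. No probe set of Ptgfr was above the floor with DMSO, while 3 of 5 were with PP1. Of 45037 non-control probe sets, 21971 were above it with DMSO and 23066 with PP1. This contrast depends on the scaling and the floor. As deposited, with a floor of 24.7, 1453924_a_at was above the floor on both arrays (41.5 with PP1 and 28.8 with DMSO). There 1446331_at was above it on neither (19.1 and 19.8).

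**Figure D2:**
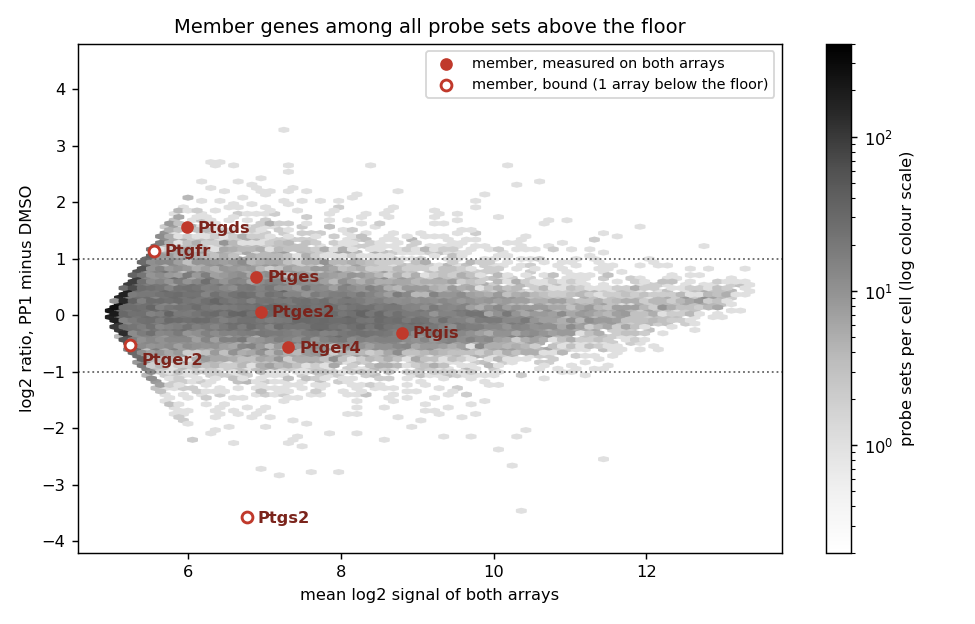
Log2 ratio (PP1 minus DMSO) against the mean log2 signal of both arrays for all 24180 probe sets above the floor (grey cells, darker for more probe sets), with the 8 genes in red by their probe set of highest mean signal; open points are bounds and dotted lines mark 2-fold. Ptgs2 lies at -3.57, below all grey cells, while Ptgds (1.56) and Ptgfr (1.14) lie near the left edge, where the spread of dim probe sets is bounded by the floor.

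The remaining genes of the pathway, were taken in 4 lists around the 10. Of 37 listed genes, 21 were measured, with a median log2 ratio of -0.04, 11 below 0 and 10 above. None was at least 2-fold lower and 2 were at least 2-fold higher, where 1.55% and 3.02% of all genes were. With 21 genes and no replicate, neither count can say whether these lists differ from all genes. In the phospholipase list (8 of 18 measured, median -0.19, 5 below 0), Pla2g4a, the cytosolic enzyme that supplies arachidonic acid to the cyclooxygenases, had 275.8 with PP1 and 430.4 with DMSO (1.56-fold lower, -0.64). Pla2g6, a calcium-independent phospholipase, had 170.9 and 166.0 (0.04), but its other probe set above the floor gave -0.62. The phospholipase genes Pla2g2e (37.5 and 55.1, -0.56) and Pla2g4c (63.9 and 90.3, -0.50) were next in size.

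Among the other synthases (5 of 6 measured, median 0.08), Hpgds, the hematopoietic prostaglandin D synthase, was at least 2.57-fold higher, with 81.5 with PP1 and 28.2 with DMSO. Both prostaglandin D synthases, Ptgds and Hpgds, were thus higher, each from a DMSO signal near or below the floor and each on 1 probe set past 2-fold. Hpgds is known in macrophages and mast cells; of the macrophage markers, 7 of 12 were above 0 with a median of 0.17, and Mrc1 (945.1 with PP1 and 436.8 with DMSO) was the only 1 at least 2-fold higher. Their part in the Hpgds value was not tested. The reductases Akr1c18 and Cbr1 were at -0.40, a bound, and 0.31. The thromboxane synthase Tbxas1 had 17.2 with PP1 and 38.3 with DMSO, at least 1.21-fold lower.

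Of the genes that clear prostaglandins (5 of 6 measured, median 0.25), Hpgd, the dehydrogenase that starts their breakdown, had 181.3 with PP1 and 89.2 with DMSO (2.03-fold higher, 1.02) by its single probe set above the floor. As deposited, its log2 ratio was 0.27, and the list held 0 genes at least 2-fold higher with median centring, loess or quantile normalization and without probe sets shared by sequence (_s_at and _x_at). The reductase Ptgr1 had 959.7 with PP1 and 809.4 with DMSO, and the uptake carrier Slco2a1 188.7 and 219.8, with 3 probe sets from -0.22 to 1.10. The brightest Ptgr2 probe set gave 0.40, and its 5 probe sets ran from -0.12 to 1.72. Of the other receptors (3 of 7 measured, median -0.20), the prostacyclin receptor Ptgir had 77.3 with PP1 and 58.1 with DMSO, the thromboxane receptor Tbxa2r 89.2 and 104.0, and the receptor partner Ptgfrn 574.0 and 658.4. Ptger1, Ptger3, Ptgdr and Ptgdr2 were below the floor on both arrays.

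The neighbouring leukotriene and lipoxygenase list, the other branch of arachidonate use, had 6 of 15 genes measured, a median of -0.13 and none past 2-fold. Its lowest member was Aloxe3 (48.6 with PP1 and 88.8 with DMSO, -0.87), an epidermal-type lipoxygenase; 1 gene of the list was at least 2-fold lower with loess and with quantile normalization. Mgst2 followed at 0.52 and Lta4h, which makes leukotriene B4, at -0.48, and Alox5ap, which presents arachidonate to 5-lipoxygenase, had 343.2 and 411.9. Of the 12 measured genes known to respond to the cAMP that EP2 and EP4 raise, 9 were above 0, where 6195 of all 12133 genes were. Their median was 0.24, against 0.01 for all genes. Past 1.5-fold, Ppargc1a was at least 2.21-fold higher from a DMSO signal of 28.4, with a log2 ratio of 0.59 by its other probe set. Rgs2 was 1.63-fold higher (350.7 with PP1 and 214.8 with DMSO), and its 3 probe sets ran from 0.19 to 0.71. The phosphatase gene Dusp1 was 1.82-fold lower (727.1 and 1326), and Crem came next in size at 0.53 (109.0 and 75.5). Sik1 followed at -0.52, a bound (17.6 with PP1 and 45.4 with DMSO). With no floor, and with the floor at the 25th percentile, 1 gene of this list was at least 2-fold lower, where 8.37% and 3.77% of all genes were. The orphan receptor gene Nr4a1 had 321.0 with PP1 and 317.7 with DMSO. The median of this list was 0.14 with loess, 0.11 with quantile normalization and -0.51 with the signals as deposited.

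**Figure D3:**
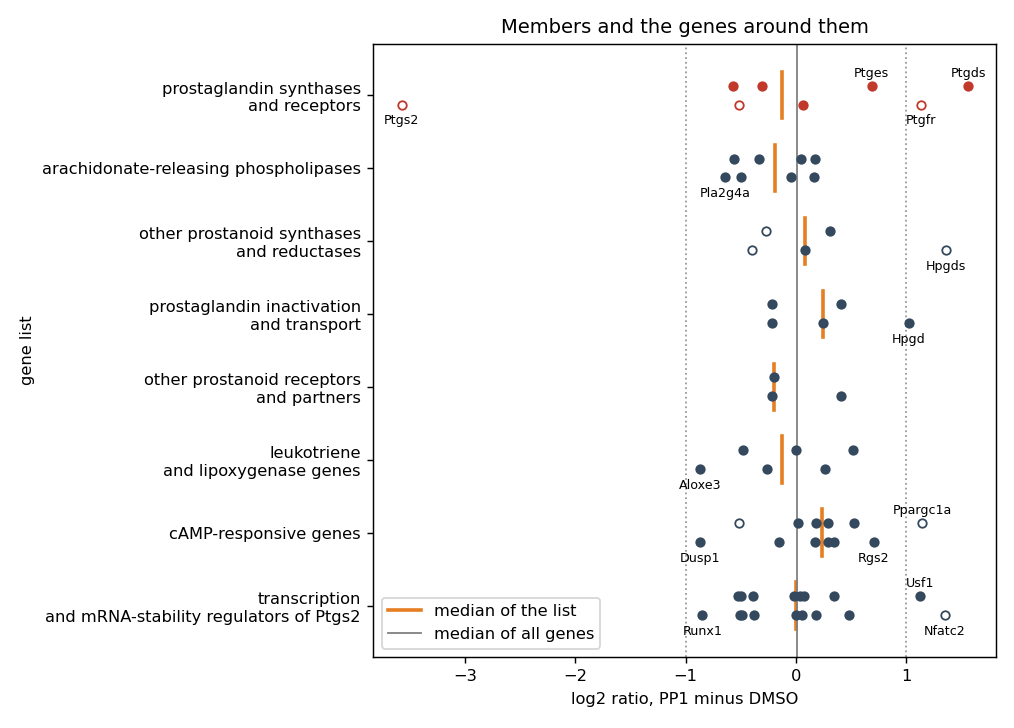
Log2 ratio (PP1 minus DMSO) of each measured gene in the 8 prostaglandin synthase and receptor genes (red) and in 7 surrounding lists (dark); open points are bounds, orange bars list medians, the solid line the median of all genes (0.01) and dotted lines 2-fold. Apart from Ptgs2, no gene of these lists lies below -1, and those above 1 are Ptgds, Ptgfr, Hpgds, Hpgd, Ppargc1a, Usf1 and Nfatc2.

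Relative to the median of all genes, the sides of 7 of the 8 genes were the same under each scaling and floor that gave a value. The signals as deposited, median centring and hybridization controls differ from the trimmed mean by 1 factor on the PP1 array. That factor shifts all genes alike and largely cancels here, so sameness under these settings is mostly by construction. Under several settings, also with loess and quantile normalization, Ptgs2, Ptger2 and Ptgfr were above the floor on 1 array only. There the sign of the floored ratio is set by that array. With no floor they were at -3.94, -1.51 and 1.25, relative to the median of all genes. The median over probe sets, with which 0 of the 8 genes were at least 2-fold higher, was not part of this check. Ptgs2 stayed between -3.94 and -1.19, Ptgds between 1.42 and 1.55, Ptgfr between 1.07 and 1.25 and Ptges between 0.60 and 0.68. Ptgis (-0.36 to -0.24), Ptger4 (-0.62 to -0.23) and Ptger2 (-1.51 to -0.13) stayed below the median, and Ptges2 (-0.02 to 0.06) lay on both sides of it. The Ptgs2 value nearest to 0 is the one with the floor at the 75th percentile of signals. Without scaling to the bulk of genes, Ptges and Ptges2 changed sign, at -0.062 and -0.68 as deposited and -0.16 and -0.78 with hybridization controls. Ptges2 was also just below 0 after loess (-0.031) and quantile normalization (-0.057). The other 6 genes, each by the probe set of highest mean signal, had the same sign with and without the scaling.

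**Figure D4:**
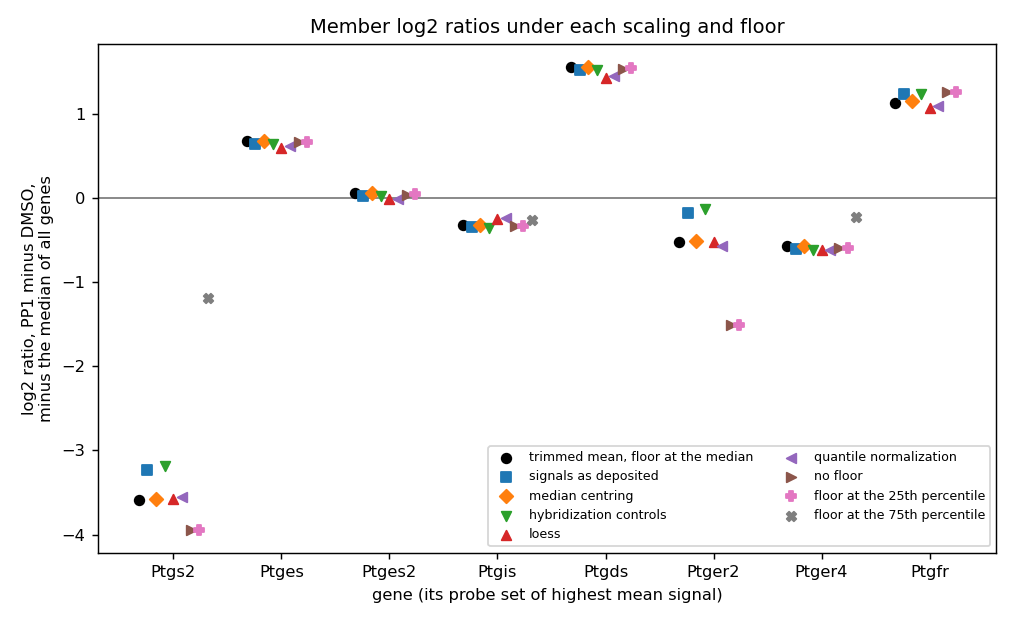
Log2 ratio (PP1 minus DMSO) of the 8 genes, by the probe set of highest mean signal and minus the median of all genes, under each scaling and floor (symbols; black for the trimmed mean with the floor at the median). Symbols of Ptgs2 and Ptger2, whose PP1 signal was below the floor, spread with the height of the floor, and Ptger4 spans -0.62 to -0.23, nearest to 0 with the floor at the 75th percentile.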

How the data were processed

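The values are the deposited MAS5 signals, a linear intensity per probe set made by the authors from 1 array for PP1 and 1 for DMSO, per the submitters' processing notes; no version or target value is stated there. Of 45101 probe sets, 64 were controls. Gene names came from the platform annotation (34945 with 1 gene, 932 with several, 9160 with none here), with symbols updated through a RefSeq table of GRCm38.p6.

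The PP1 array was multiplied by 1.68, which made the means after trimming 2% at each end equal (94.1 on the PP1 array and 158.1 on the DMSO array as deposited). Scaled signals below 31.7 were set to that floor before log2. A gene was represented by its probe set of highest mean log2 signal. The 10 genes and all lists were chosen with earlier results of these data known. Named are all 17 probe sets, pathway-list genes past 1.5-fold, up to 4 others of large ratio in each such list, and the 5 genes nearest to Ptgs2; Cebpb, Jun, Rela, Zfp36, Elavl1, Pla2g6, Nr4a1 and single marker genes were named for their role after their values were seen. With 1 array per group no test was run, and the number of arrays limits the precision. Steps were tested on simulated data. Python 3.11.15, pandas 2.3.3 and statsmodels 0.14.6 (loess) were used.

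Alternatives were the signals as deposited, median centring, bacterial hybridization controls (18 probe sets), loess, quantile normalization, no floor, floors at the 25th and 75th percentiles, the median over probe sets, the omission of _s_at and _x_at probe sets, and folds of 1.5 and 3.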

Additional observations from a re-analysis of the deposited data

Results flagged for a closer look

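Outside the comparison, 1 of the 2 probe sets that the annotation gives to both Ptges3 (a co-chaperone also known as cytosolic prostaglandin E synthase) and Ptges3-ps was higher with PP1. Probe set 1460221_at had a signal of 1292 with PP1 and 756.3 with DMSO (1.71-fold higher), and the other, 1417998_at, had 1273 and 1490 (log2 ratio -0.23). As deposited, the log2 ratios were 0.02 and -0.98. Transcripts of the gene and the pseudogene cannot be told apart by these probe sets; the cause of the difference was not tested.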

How the results depend on the processing

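As no replicates exist, a value counts as moved here when it shifts by more than the SD between probe sets of a gene (0.41), and a count when it changes by more than 1.5 times. With the signals as deposited, the median of all genes shifted by -0.72, and with hybridization controls by -0.80. As deposited, the log2 ratios were 0.81 for Ptgds, 0.53 for Ptgfr, -0.062 for Ptges, -0.68 for Ptges2, -1.06 for Ptgis and -1.32 for Ptger4, with 3 genes of the 8 at least 2-fold lower, 0 at least 2-fold higher and a median of -0.78, where 23.4% of all genes were lower and 0.406% higher. With hybridization controls they were 0.72, 0.44, -0.16, -0.78, -1.15 and -1.41 in that order, again with 3 lower and 0 higher and a median of -0.85, where 30.6% and 0.283% of all genes were. List medians as deposited were -0.79 (phospholipases), -0.64 (other synthases), -0.50 (inactivation and transport), -0.95 (other receptors), -0.51 (cAMP-responsive) and -0.75 (regulators of Ptgs2). With hybridization controls they were -0.89, -0.68, -0.60, -1.04, -0.61 and -0.84, and -0.58 for the leukotriene list. With no floor and with the floor at the 25th percentile, Ptger2 was at -1.48 and 2 genes were at least 2-fold lower, where 8.37% and 3.77% of all genes were; the lower floor also took the median of the other receptors to 0.31, as it admits dimmer genes. With the floor at the 75th percentile, Ptgs2 was at -1.23 by construction and 0 genes were at least 2-fold higher, as was so with the median over probe sets and at 3-fold. The other 123 log2 ratios, medians and counts of these kinds stayed within the limits, and none of Ptgs2, Ptgds and Ptgfr changed sign. Where Ptgs2 or Ptgfr was a bound, the array above the floor set its sign. Among values of second probe sets, gaps between probe sets and 2-fold counts of single lists, 56 moved and 152 did not. As deposited, 4 phospholipase, 3 leukotriene and 7 regulator genes were at least 2-fold lower, against 0 in each with the trimmed mean. The count of regulators at least 2-fold higher was 2, but 1 with loess or quantile normalization and 0 with the median over probe sets. Dim signals limit Ptgds, Ptgfr and Ptger2 most.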
